A study of Drosophila melanogaster with 2 samples.

Results

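Binding of a GFP-tagged Fer1 was described at 6 Drosophila melanogaster genes: the 3 Fer genes Fer1, Fer2 and Fer3, and da, emc and Su(H), which encode or regulate the kinds of partner that a protein of this family works with. The genes were chosen by name, and every peak summit inside a gene or within 5 kb of it on either side was collected. The 6 genes were taken from 13945 protein-coding genes on the major chromosome arms, and 9 of 7329 summits in the study's thresholded peak list fell in their windows. The series was chromatin immunoprecipitation and sequencing (ChIP-seq) of 1 group, with 2 biological replicates. The embryos were from the Fer1-GFP line, a stable transgenic line carrying Fer1 with GFP at its C-terminus, were of mixed sex, and were collected whole at 6 to 24 h of development. The antibody was directed against GFP, and chromatin had been sonicated to 200 to 800 bp. A control experiment is listed but was not analysed here, and no second condition was compared, so values are descriptions and no test was made. The embryos carry Fer1 sequence in the transgene as well as at the Fer1 locus. The extent of the locus held by the transgene is not stated in the labels, and its part in the peaks at Fer1 was not tested.

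In vertebrates, the pancreas transcription factor complex PTF1 joins the basic helix-loop-helix (bHLH) protein PTF1A to an E protein and to RBPJ, the DNA-binding protein of the Notch pathway, and it acts in the pancreas and in inhibitory neurons. Fer1, Fer2 and Fer3 are fly bHLH proteins related to PTF1A. Daughterless, encoded by da, is the fly E protein and dimerises with tissue-specific bHLH proteins on E-boxes. Extramacrochaetae, encoded by emc, lacks the basic region that touches DNA and holds Daughterless and its partners off their sites. Suppressor of Hairless, encoded by Su(H), is the fly RBPJ.

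The peak lists give for each peak an interval, a summit (the base of highest enrichment) and a signal value in the authors' own units, which was compared only within a list. The thresholded list is the authors' list after a cut for reproducibility, with signal values between 110.1 and 4431 and a median of 182. The pooled list holds 30000 peaks of both replicates together, including peaks that may be background, with signal values from 21.8 and a median of 55.4. The thresholded peaks were the 7329 pooled peaks of highest signal, so a peak among them need not be strong in each replicate. Each replicate also has a list of 30000 peaks. A rank counts peaks from the strongest, which has rank 1. Read totals were not in these files, so depth is unknown. In every list the closest neighbouring summits were 199 bp apart. All coordinates are on dm6 (Release 6 assembly), and genes are those of Ensembl release 115.

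The sequences below are the windows of up to 50 bp on each side of the 6 thresholded summits whose nearest gene start belongs to a member, and they are shown so that the position of each motif can be read beside the peak values that follow. At da and emc the windows over the gene start were ended at the base before it. Each is written 5′ to 3′ in the direction of its gene. Capitals mark the E-box CANNTG, the core of the Su(H) site TGGGAA on either strand, and the letters TATAAA and TATCGA, of which the last pair was added after reading the sequences.
Fer1 intron, stronger summit (chr3R:7139347-7139447, plus strand): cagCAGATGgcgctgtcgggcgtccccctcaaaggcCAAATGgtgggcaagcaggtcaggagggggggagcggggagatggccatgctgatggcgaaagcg
Fer1 intron, weaker summit (chr3R:7139546-7139646, plus strand): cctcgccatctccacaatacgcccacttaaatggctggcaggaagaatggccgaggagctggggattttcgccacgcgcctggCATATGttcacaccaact
Fer2 upstream (chr3R:16151651-16151751, minus strand): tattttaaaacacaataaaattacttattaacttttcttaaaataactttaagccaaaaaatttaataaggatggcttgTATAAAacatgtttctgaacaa
da start (chr2L:10388009-10388104, plus strand): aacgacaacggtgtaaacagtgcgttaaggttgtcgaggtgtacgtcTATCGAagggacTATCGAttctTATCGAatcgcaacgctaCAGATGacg
emc start (chr3L:749338-749399, plus strand): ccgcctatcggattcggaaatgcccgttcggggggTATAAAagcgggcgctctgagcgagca
emc intron (chr3L:751912-752012, plus strand): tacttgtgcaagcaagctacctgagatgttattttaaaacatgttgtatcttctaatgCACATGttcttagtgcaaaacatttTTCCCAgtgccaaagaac

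A thresholded summit lay in or within 5 kb of 4 of the 6 genes, namely Fer1, Fer2, da and emc, where 58.8% of all coding genes had one. Fer3 and Su(H) had none. Within 1 kb of an annotated start, 3 of the 6 genes had a thresholded summit (Fer2, da and emc), beside 33.1% of coding genes. Inside the gene, 2 of the 6 had one (Fer1 and emc), beside 18.6% of coding genes. In the pooled list all 6 genes had a summit in the gene or within 5 kb, beside 72.3% of coding genes, and 3 had a summit inside the gene (Fer1, da and emc), beside 37.4%. The member windows held 1.10 thresholded summits per 10 kb, where the assembled genome held 0.548. The windows centre on genes and the genome figure does not, so this is no measure of preference. The highest density was at da with 1.98 per 10 kb, followed by Fer1 with 1.90, emc with 1.42 and Fer2 with 0.84. Of the 9 summits, 6 were nearest to the start of the member itself and 3 to the start of another gene.

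**Figure D1:**
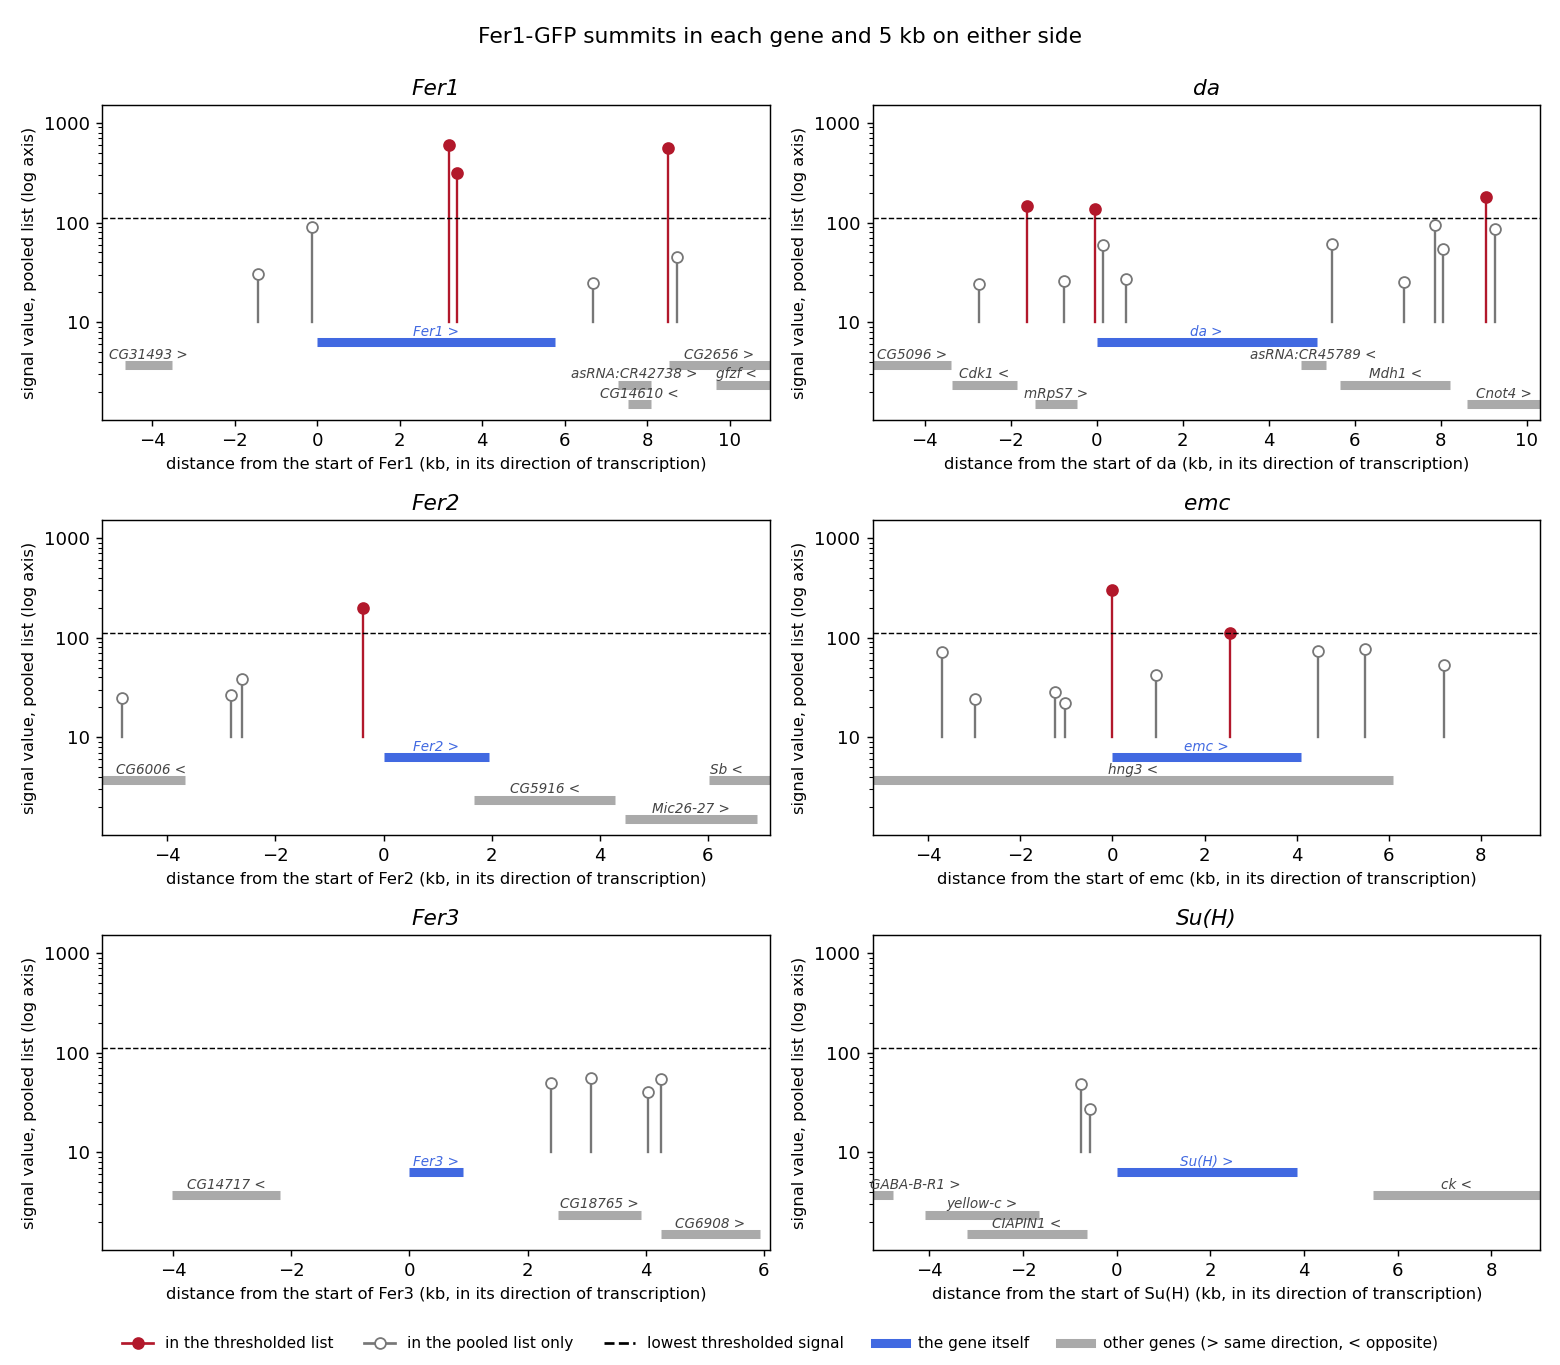
Fer1-GFP summits of the pooled list along each of the 6 genes and 5 kb on either side, by distance from the gene start in kb (x) and signal value on a log axis (y). Filled points are also in the thresholded list and the dashed line is its lowest signal, 110.1. Points above the line stand at Fer1, Fer2, da and emc, and the points of Fer3 and Su(H) all lie below it and outside the gene bodies.

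Fer1 (FBgn0037475) lies on chromosome arm 3R from 7136206 to 7141972 on the plus strand and carried the strongest peak of the 6 genes. Its 2 intragenic summits both fell in the last intron, which spans 7137995 to 7141489 (3495 bp). The stronger, at 7139397, lay 3191 bp past the start, with a signal value of 599.9 in the pooled list, 366.3 in replicate 1 and 237.6 in replicate 2. Its rank was between 471 and 527 in all 3 lists. The weaker, at 7139596, had signal values of 312.7 in the pooled list, 194.7 in replicate 1 and 108.4 in replicate 2. Its interval overlapped that of the stronger and its summit lay exactly at the 199 bp minimum spacing, and whether it marks a separate site was not tested. The Fer1 start had no thresholded summit. A pooled summit 135 bp upstream of it, at 7136071, had a signal value of 89.2 and rank 9326, below the threshold. That summit was below it in each replicate too, with ranks of 11746 in replicate 1 and 9551 in replicate 2. Of all coding genes, 9.20% had a higher peak than Fer1 in the gene or within 5 kb, and 38.6% had a higher one within 1 kb of the start.

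The third thresholded summit in the Fer1 window, at 7144712, belonged by distance to CG2656, whose start was 12 bp away and 8518 bp past that of Fer1. It had a signal value of 563.3 in the pooled list, 305.4 in replicate 1 and 244.0 in replicate 2. Its rank was 549 in the pooled list, and in replicate 2 it ranked above the stronger intron summit (504 against 527), while in replicate 1 it ranked below it (649 against 471). The order of these peaks is therefore not the same in both replicates.

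Fer2 (FBgn0038402), a gene needed for the development of dopaminergic neurons in the fly brain, lies on 3R from 16149369 to 16151312 on the minus strand. It had 1 thresholded summit, at 16151701, in the intergenic sequence 389 bp upstream of its start. The signal value was 199.1 in the pooled list, 121.0 in replicate 1 and 79.3 in replicate 2, with ranks of 3198, 3163 and 3541. The replicate summits lay 37 bp and 41 bp from the pooled one, the largest distances among the 9 summits. The other 3 pooled summits in the window had signal values of 24.7 to 37.9, and their nearest start was that of CG6006.

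Fer3 (FBgn0037937), on 3R from 11693410 to 11694311 on the minus strand, is the shortest of the 6 genes at 902 bp. No summit of the pooled list or of either replicate fell inside it. The 4 pooled summits in its window all lay past its 3′ end, at or near CG18765 and CG6908, with signal values between 40.5 and 55.8. The highest, at 11691229 in a coding exon of CG18765, ranked 14904 in the pooled list, 17969 in replicate 1 and 14295 in replicate 2. The nearest thresholded summit was 5041 bp from the gene, just outside the window. It stood 236 bp upstream of CG6834 and its signal value was 145.4. The Fer genes thus stood in the order Fer1, Fer2, Fer3 by highest peak in the window, and the lists of both replicates gave that order.

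The E protein gene da (FBgn0267821), on 2L from 10388105 to 10393228 on the plus strand, had a thresholded summit 46 bp upstream of its start, at 10388059. The signal value was 137.5 in the pooled list, 88.6 in replicate 1 and 48.9 in replicate 2. The rank was 5444 in the pooled list, 5096 in replicate 1 and 7195 in replicate 2, close to the end of the highest 7329 peaks of the second. No thresholded summit fell inside da. Within the gene, the pooled list had a summit in the 5′ untranslated region with a signal value of 59.4 and one in an intron with 26.8. The other 2 thresholded summits in the window lay at neighbouring genes. One, at 10386480 with a signal value of 146.8, was 182 bp upstream of mRpS7, a mitochondrial ribosomal protein gene, and between that gene and the cell cycle kinase gene Cdk1. The other, at 10397165 with 180.0, lay 14 bp from a start of Cnot4 and 9060 bp past the da start. The highest peak in the da window was thus the one at Cnot4. The strongest pooled peak below the threshold among all member windows, at 10395972 with 95.1, was in an intron of Mdh1, a malate dehydrogenase gene.

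The antagonist gene emc (FBgn0000575) lies on 3L from 749400 to 753492 on the plus strand, entirely within the span of hng3 on the opposite strand (737680 to 755489). Its stronger summit, at 749388, lay 12 bp upstream of the emc start. The signal value was 298.8 in the pooled list, 184.1 in replicate 1 and 108.2 in replicate 2, with ranks of 1658, 1611 and 2136. Of all coding genes, 9.62% had a higher peak within 1 kb of the start, the smallest such share of the 6 genes. The weaker summit, at 751962, lay in an intron of emc that spans 750228 to 752271, 2562 bp past the start. Its pooled signal value of 110.2 and rank of 7319 were just inside the threshold. It had 72.9 and rank 6722 in replicate 1, and 32.3 and rank 11905 in replicate 2. Among the highest 7329 peaks of replicate 2 alone, emc therefore had 1 summit in place of 2.

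Su(H) (FBgn0004837), on 2L from 15039488 to 15043334 on the plus strand, had the lowest pooled signal of the 6 genes when the highest peak in the gene or within 5 kb was taken. No pooled or replicate summit fell inside it. The pooled list had 2 summits in the window, both upstream and both nearer to the start of CIAPIN1, a gene of iron-sulfur cluster assembly on the opposite strand. The one at 15038725, in a CIAPIN1 coding exon 763 bp upstream of the Su(H) start, had a signal value of 47.8 in the pooled list, 33.6 in replicate 1 and 13.8 in replicate 2. The second, at 15038926, had 27.1 in the pooled list. The nearest thresholded summit lay 13588 bp from the gene, in an intron of ck, a myosin gene, with a signal value of 265.4. Of all coding genes, 69.5% had a higher pooled peak in the gene or within 5 kb, as against 68.4% for Fer3.

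**Figure D2:**
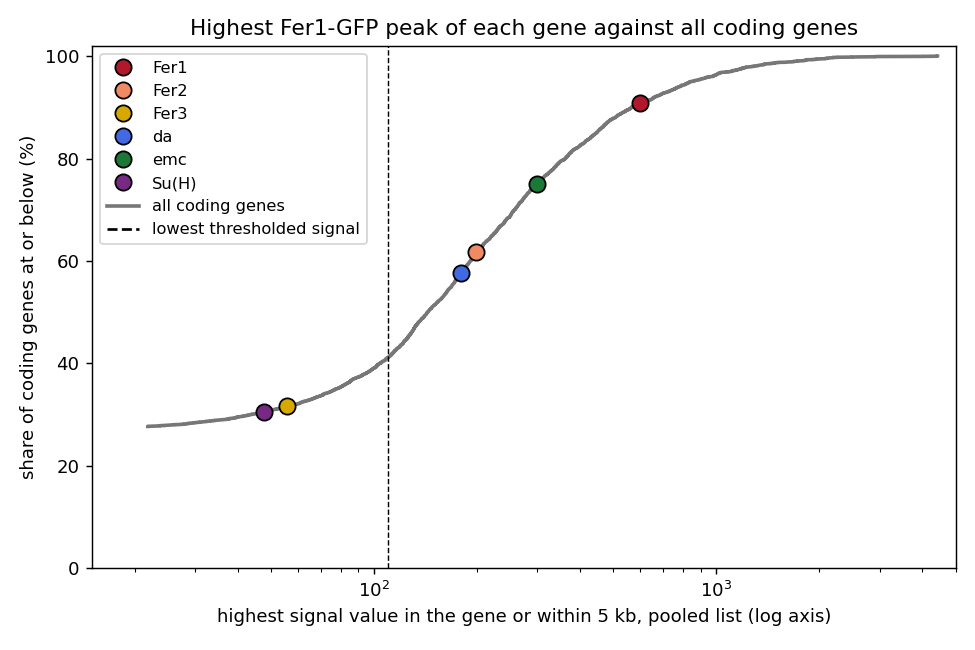
Highest signal value of the pooled list in each gene or within 5 kb (x, log axis) against the share of coding genes at or below it in percent (y). The points are the 6 genes on the curve of all coding genes, which begins at the 27.7% that have no pooled summit, and the dashed line is the lowest thresholded signal. Fer1 stands at 599.9, emc at 298.8, Fer2 at 199.1 and da at 180.0, and Fer3 at 55.8 and Su(H) at 47.8 are left of the line.

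By the highest peak within 1 kb of the start, the genes stood in the order emc (298.8), Fer2 (199.1), da (137.5), Fer1 (89.2) and Su(H) (47.8), and Fer3 had no pooled summit there. Both replicates gave this order. In replicate 2 the start peaks of da and Fer1 had signal values of 48.9 and 39.1. By the highest peak in the whole window the order changed between replicates at Fer2 and da. The Fer2 peak (121.0) was above that of the da window (92.4) in replicate 1 and below it in replicate 2 (79.3 against 89.5). The Su(H) window was the lowest in both, with 33.6 in replicate 1, where Fer3 had 37.5, and 13.8 in replicate 2, where Fer3 had 32.0. With 2 replicates and no read counts, neighbours in this order cannot be said to differ beyond their spread.

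Each replicate had a summit close to each thresholded member summit. The thresholded peaks derive from the same 2 replicates, so some closeness is built in. The median distance from a thresholded summit to the nearest summit of replicate 1 was 8.00 bp at the members and 13.0 bp over all thresholded peaks. The distance to replicate 2 was 4 bp at the members and 15 bp over all. The nearest peak was among the 7329 highest of replicate 1 for 9 of the 9 member summits and for 90.0% of all thresholded peaks. In replicate 2 it was so for 8 of the 9, the exception being the emc intron summit, and for 85.6% of all. A stricter comparison asked for at least 50% of both intervals to be shared. By that rule 6 of the 9 member peaks matched one in the highest 7329 of both replicates, beside 54.1% of all thresholded peaks. The 3 that did not were the da start peak, which matched in neither replicate, and the peaks at the emc start and in the emc intron, which did not match in replicate 2. The da start peak was 155 bp wide in the pooled list and 410 bp in each replicate. The emc start peak was 307 bp wide in the pooled list, 273 bp in replicate 1 and 119 bp in replicate 2. At both starts the summits themselves were within 8 bp of the pooled one, so the failed matches there came with a difference in interval width.

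**Figure D3:**
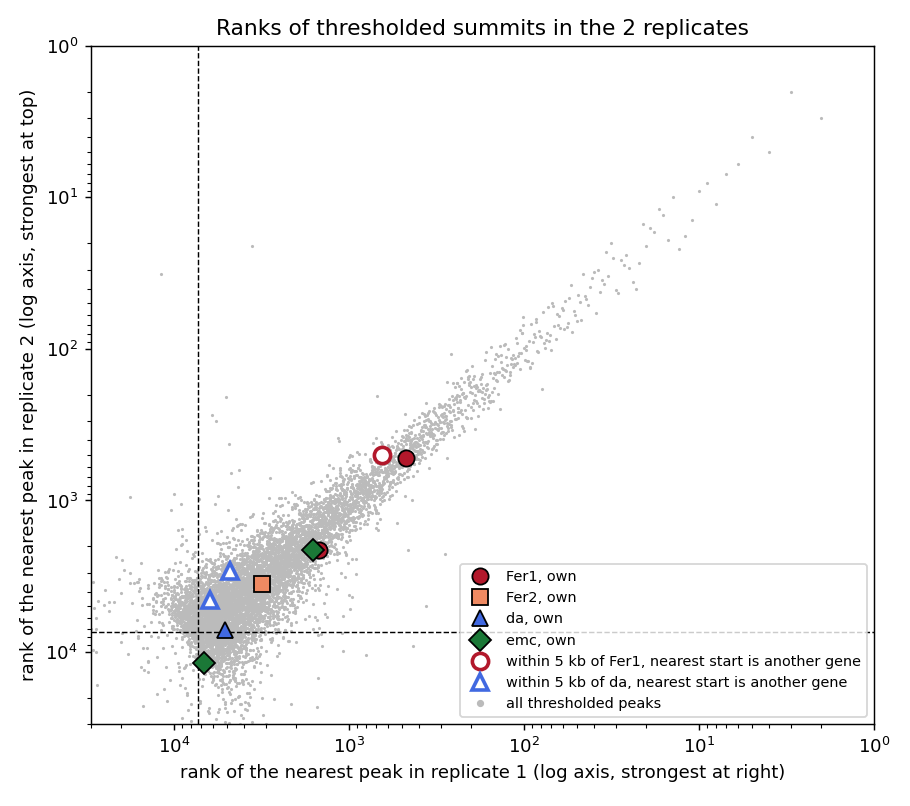
Rank of the nearest peak in replicate 1 (x) and in replicate 2 (y) for each thresholded summit, on log axes with the strongest peaks at the top right; dashed lines mark rank 7329. Coloured points are the 9 member summits (open where the nearest start is another gene's) and grey points are all thresholded peaks. The emc intron summit, with ranks of 6722 and 11905, is the member point below the line of replicate 2.

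An E-box stood within 50 bp of 6 of the 9 member summits, where 37.8% of the 101 bp windows of all thresholded summits had one. The stronger Fer1 intron summit had CAGATG, starting 47 bp before it, and CAAATG, starting 14 bp before it. The weaker had CATATG, starting 33 bp past it. At the da start, CAGATG occupied positions 9 to 4 bp upstream of the start. The summit in the emc intron had CACATG, starting 8 bp past it. The summits at CG2656 (CACATG and CAGCTG) and at Cnot4 (CAGCTG and CATATG) each had a pair. No E-box was found at Fer2, at mRpS7 or at the emc start, the strongest start peak of the 6 genes. Within 25 bp of the summit, only 2 of the 9 windows held an E-box, beside 20% of all windows. Within 100 bp, 6 of the 9 held one, beside 61.5% of all windows. The form CAGATG was in 3.25% of all thresholded windows, CAAATG in 9.70%, CATATG in 3.97%, CACATG in 4.13% and CAGCTG in 5.94%.

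The Su(H) core, TGGGAA on either strand, was found at 1 of the 9 summits, that of the emc intron, beside 5.01% of all windows. It read TTCCCA on the plus strand, at 751995 to 752000, and stood with an E-box at 751970 to 751975. An E-box and a Su(H) core within 50 bp of one summit were found in 2.05% of all thresholded windows. The emc intron summit is the one closest to the threshold and it ranks 11905 in replicate 2. Among the highest 7329 peaks of each replicate alone, the count of member summits with a Su(H) core was 0. In replicate 1 the emc intron peak was among them, at rank 6722, but its summit at 751939 lay more than 50 bp from the core. Over all of the highest 7329 peaks, a Su(H) core was in 5.08% of windows in replicate 1 and 4.94% in replicate 2. A match to these letters is a description of the sequence and not a site of binding.

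**Figure D4:**
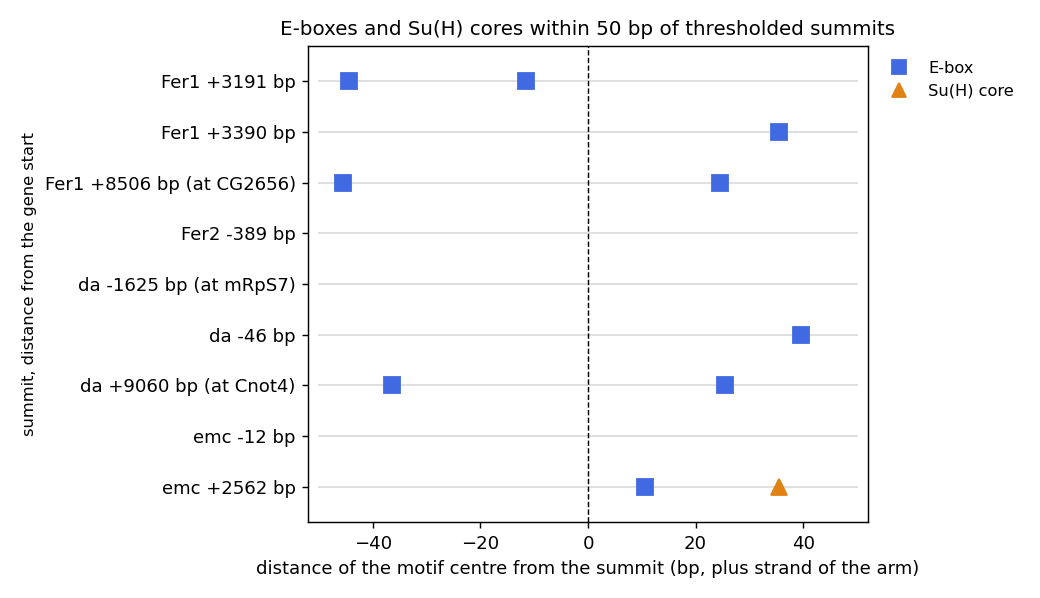
Distance in bp from the summit to the centre of each E-box (squares) and Su(H) core (triangle) within 50 bp, one line per thresholded member summit, labelled by its distance from the gene start. Of the 9 lines, 6 carry an E-box and 1, in the emc intron, carries a Su(H) core.

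The base composition of the full 101 bp windows varied between members. At the da and emc starts these windows run past the sequences shown above, which had 46.9% G or C at da and 61.3% at emc. The stronger Fer1 intron window had 66.3% G or C, and 0.164% of all thresholded windows had more, against a median of 35.6%. The weaker Fer1 intron window and the emc start window each had 56.4%, with 3.47% of all windows higher. The da start had 47.5%. The Fer2 window was at the other end, with 19.8%, and 96.5% of windows were higher. The emc start window held TATAAA, 27 to 22 bp upstream of the start, where the TATA box of a promoter commonly stands. TATAAA was in 19.4% of all windows. At Fer2 it stood 360 to 355 bp upstream of the start. The da window held TATCGA 3 times, at 49 to 44, 37 to 32 and 27 to 22 bp upstream of the start. TATCGA, the first 6 letters of the DNA replication-related element known in fly promoters, was in 6.95% of all windows. In the da window the 3 copies were followed by ag, tt and at, so none continued to the full element, which ends in TA. TATAAA and TATCGA were chosen after the sequences had been read. Whether base composition or promoter letters play a part in these peaks was not tested.

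For comparison, 2 lists of related genes were read in the same way. Of 17 class II bHLH genes, which encode tissue-specific partners of Daughterless, 6 had a thresholded summit in the gene or within 5 kb (35.3%, where all coding genes had 58.8%). Among them the highest peaks were at HLH54F (501.3), a gene of the visceral muscle lineage, net (487.5), nau (469.3), the fly MyoD gene, and Hand (289.9), a heart gene. Only net, at 169 bp upstream of its start, and Oli were nearest to their own start. The peak at nau was nearest to the start of CG10365, and that at Hand to the start of Ufd4. Of 7 genes of nuclear partners of Su(H), 6 had a thresholded summit (85.7%), and the exception was H, the Hairless corepressor gene. The highest were at mam, the Notch coactivator gene, with 923.7, at gro, a corepressor gene, with 617.4, at N, the Notch receptor gene, with 464.3, and at CtBP, a corepressor gene, with 182.6. The mam gene is 69154 bp long, and 15 summits fell in its window. The median length of these 7 genes was 8176 bp, of the bHLH genes 2130 bp and of all coding genes 2166 bp. Whether gene length plays a part in these shares was not tested. The gro summit was 145 bp from its own start, and gro and CtBP were the 2 of these 6 whose highest peak was nearest to its own start.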

How the data were processed

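ChIP-seq peak lists of 1 group with 2 biological replicates were read, grouped by the labels. Per the labels, chromatin was sheared to 200 to 800 bp and recovered with an anti-GFP antibody. Per the file headers and readme, the authors deposited lists on dm6 derived from the alignments of each replicate with a control; for aligner, caller and IDR threshold the sources used here give nothing. The signal value of each peak is in the authors' own units as deposited. The −log10 q value is as deposited and reaches a shared maximum of 4.29 in the pooled list, at which 32.7% of peaks lie, so peaks were ranked by signal. The deposited summit offset is a score in bp from the peak start, and summits were placed with it. All 7329 thresholded peaks were among the 7329 pooled peaks of highest signal. The dm3 lists were not used here.

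A gene window was the gene plus 5 kb on each side. Motifs were searched within 50 bp of summits, on both strands. Peaks matched when at least 50% of both intervals overlapped. The named genes were the 6 members, each gene whose start is nearest to a summit at one, and up to 4 genes of each partner list by highest signal; 1 nearest gene is not reported here. Members and lists were chosen with earlier results of these data known. With 1 group there was no contrast and no test. Genes come from Ensembl release 115, sequence from the RefSeq Release 6 assembly. Alternatives changed the window, list, overlap and motif window. Code was checked on simulated data and ran in Python 3.11.15 with numpy 2.4.6, pandas 2.3.3 and matplotlib 3.10.9.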

Additional observations from a re-analysis of the deposited data

How the results depend on the processing

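With the gene span alone, 2 of the 6 genes and 18.6% of coding genes had a thresholded summit, with 3 summits in all. With 1 kb on each side, 4 of the 6 genes and 39.7% of coding genes had one. With 10 kb it was 5 of the 6 and 69.9%, with 18 summits at the 6 genes. The 3664 highest peaks of the list gave 3 of the 6 and 41.7% of coding genes, with 5 summits at the 6 genes. The whole pooled list gave all 6 and 72.3%, with 39 summits. Counting all annotated genes gave 54.9%. The highest 7329 peaks of each replicate gave 4 genes, 58.2% to 59.5% of coding genes, and 8 summits (without replicate 1) to 10 (without replicate 2). An E-box was found at 2 summits within 25 bp. A Su(H) core was found at 0 summits within 25 bp and at 2 within 100 bp, beside 2.29% and 10.0% of all windows. A further alternative for motifs, chosen after seeing the data, used the highest 7329 peaks of single replicates. Without replicate 1, an E-box was at 5 of 8 summits, beside 37.0% of all windows, and a Su(H) core at 0, beside 4.94%. Without replicate 2, an E-box was at 7 of 10 summits, beside 37.9%, and a Su(H) core at 0, beside 5.08%. Matches in both replicates went to 8 of 9 with an overlap of 1 bp, beside 81.1% of all thresholded peaks. With summits within 100 bp they were 8 of 9, beside 74.3%. Against the whole replicate lists they were 7 of 9, beside 70.4%. For summit counts at single genes, a change beyond 1.5-fold was taken as a move, and 16 values moved and 26 did not. Some of the 26 changed within that limit, such as Fer1, from 3 summits to 2 with the gene span alone. For the shares of all thresholded summits with a motif, the 4 values from another motif window moved, and the 4 from single replicates changed little.

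No paired analysis was possible because the series has 1 group, so no groups share replicate numbers. Depth is unknown, and each deposited list other than the thresholded one ends at 30000 peaks, so weaker enrichment was not seen here.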
